A study of Mus musculus with 4 samples.

Results

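Notch receptors, their ligands and their target genes were followed across the cell types of the growing mouse incisor. The 10 genes were Notch1, Notch2, Notch3, Jag1, Jag2, Dll1, Dll4, Hes1, Hey1 and Heyl, taken by gene symbol from the 32285 features of 4 single-cell count matrices, and all 10 were found. Cells came from proximal lower incisor tissue of 15-day-old mice, with 2 libraries of WT mice and 2 libraries of Din-KO mice. The Din-KO allele was derived from a gene-trap (tm1a) allele by a cross to a mouse with germline Cre, which took out the Neo cassette and exon 2 of Din and kept a LacZ reporter under the Din promoter, and the deletion is therefore present in every cell type. The sources used here do not give how many mice went into a library, so p-values measure the spread between libraries, which may be technical. Sex was not balanced over the genotypes. In mesenchyme, both WT libraries held 0 cells with Y-linked transcripts, whereas the Din-KO libraries held 1200 and 245 such cells beside 1019 and 266 with Xist, and the other classes were divided in the same way. Genotype and sex composition therefore cannot be told apart in comparisons over all cells. The level of Din was 33.1 and 24.6 CPM in WT and 17.3 and 21.0 CPM in Din-KO libraries, and it was not used as a check of the labels because where the counted 3' tags lie relative to exon 2 was not determined.

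Notch receptors are single-pass membrane proteins that are activated by Jagged and Delta-like ligands on a neighboring cell. Ligand binding lets gamma-secretase release the intracellular domain, which joins RBPJ and Mastermind-like proteins in the nucleus and switches on repressors of the Hes and Hey families. In blood vessels, Dll4 and Notch1 restrain sprouting and are part of the arterial program of endothelium, and Notch3 with Jag1 is needed by the smooth muscle cells and pericytes of the vessel wall. In the incisor, Notch signaling is known from the dental epithelium, where it takes part in renewal at the cervical loop, and from the pulp.

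Notch1 and Dll4 were highest in endothelium and Notch3 was highest in perivascular cells, so the 250 bases before the start sites of these 3 genes are shown here, 5′ to 3′ on the gene's strand (RefSeq, GRCm38.p6). The capitals mark GC boxes, the letters GGGCGG on either strand.
Notch1 (chr2:26503823-26504072, minus strand): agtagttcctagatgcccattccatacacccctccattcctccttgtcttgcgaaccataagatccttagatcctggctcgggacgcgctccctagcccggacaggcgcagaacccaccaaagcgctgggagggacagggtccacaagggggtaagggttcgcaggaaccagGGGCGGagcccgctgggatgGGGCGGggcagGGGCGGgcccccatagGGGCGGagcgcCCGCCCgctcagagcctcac
Notch3 (chr17:32166891-32167140, minus strand): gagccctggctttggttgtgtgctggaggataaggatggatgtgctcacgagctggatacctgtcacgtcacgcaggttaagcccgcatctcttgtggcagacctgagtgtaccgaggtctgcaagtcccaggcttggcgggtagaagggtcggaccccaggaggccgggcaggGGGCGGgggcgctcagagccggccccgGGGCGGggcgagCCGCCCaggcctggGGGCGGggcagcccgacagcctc
Dll4 (chr2:119325534-119325783, plus strand): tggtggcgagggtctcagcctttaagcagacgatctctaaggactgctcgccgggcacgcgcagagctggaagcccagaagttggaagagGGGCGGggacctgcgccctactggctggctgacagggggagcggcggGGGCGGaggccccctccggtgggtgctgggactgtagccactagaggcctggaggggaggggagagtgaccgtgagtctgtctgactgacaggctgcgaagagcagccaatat
The endothelial genes Notch1 and Dll4 held 5 and 2 GC boxes in these bases and the perivascular gene Notch3 held 4, and GC content was 66.0%, 65.6% and 68.8%. The RefSeq start of Notch1 used here lies 12841 bases inside the longer GENCODE gene, whereas those of Notch3 and Dll4 lie within 38 bases of the GENCODE ones. RefSeq windows of 300 bases, from 250 before to 50 after a start, were at hand for 7 of the 10 genes in 8 windows, and for Hes1, Hey1 and Heyl there was no entry. A GC box was found in 35.7% of 32851 such windows over all genes, in 5 of the 7 Notch genes, and in neither Jag1 nor Dll1. The windows of the Notch genes had a GC content of 55.67% to 86.0%, against a median of 52.7% over all windows. The letters TGGGAA (the core of the RBPJ site) were in 25.6% of all windows, CCGGAA (an ETS core, which shares its GGAA end with the former) in 14.9% and CACGTG (an E-box bound by HES and HEY proteins) in 7.15%. None of these 3 motifs was in any of the 8 windows of the Notch genes on either strand, which says only that these letters are not in these bases.

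Filtering left 11310 of 20502 barcodes, with 1272 to 4575 cells and a median of 8016 to 11587.5 UMIs (unique molecular identifiers, which count captured transcripts) per cell in a library. Cells were clustered without the Notch genes as features, and clusters were named from marker lists. The endothelial class held 749 cells (102 to 294 in a library), the perivascular class 231 (48 to 71), the epithelial class 578 (121 to 177) and the mesenchymal class 6554 (578 to 2788). These are classes by markers, so a name stands for endothelium-like cells and so on. Of the marker lists, 13 of 13 endothelial, 13 of 14 perivascular, 15 of 17 epithelial and 12 of 12 mesenchymal genes were detected, in at least 10% of cells, in their own class. At most 4 kept barcodes were shared by any pair of libraries. Levels are UMIs summed over the cells of a class and library, as counts per 1000000 UMIs of that sum (CPM). They compare 1 gene across classes, not different genes. In such sums, fewer cells with transcripts and fewer transcripts in each cell cannot be told apart. Values are given in the order replicate 1 and replicate 2.

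As a measure of free RNA, 343 to 689 barcodes of a library with over 50% hemoglobin UMIs, chosen after the values of other classes had been seen, held each of the 10 genes at 0 to 5.87 CPM. Notch1, Dll4 and Dll1 had their highest mean in endothelium, and Notch3, Jag1 and Heyl in perivascular cells. For the other 4 genes the highest class had a neighbor that was not called apart from it: Jag2 in endothelium and epithelium, Hes1 in endothelium and perivascular cells, Hey1 in perivascular cells and mesenchyme, and Notch2 in mesenchyme and perivascular cells. In an edgeR quasi-likelihood test on the 16 sums of 4 classes and 4 libraries, with the library as a block and Benjamini-Hochberg adjustment over 13060 genes, 9 of the 10 genes were called between endothelium and perivascular cells, where 36.0% of all tested genes were called. The count was 8 between endothelium and epithelium (54.7% of all genes), 8 between endothelium and mesenchyme (53.2%), 7 between perivascular cells and epithelium (44.1%), 5 between perivascular cells and mesenchyme (15.1%) and 9 between epithelium and mesenchyme (44.4%). Classes were formed on these same cells, so these tests cover the spread over libraries and not the choice of cells.

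**Figure D1:**
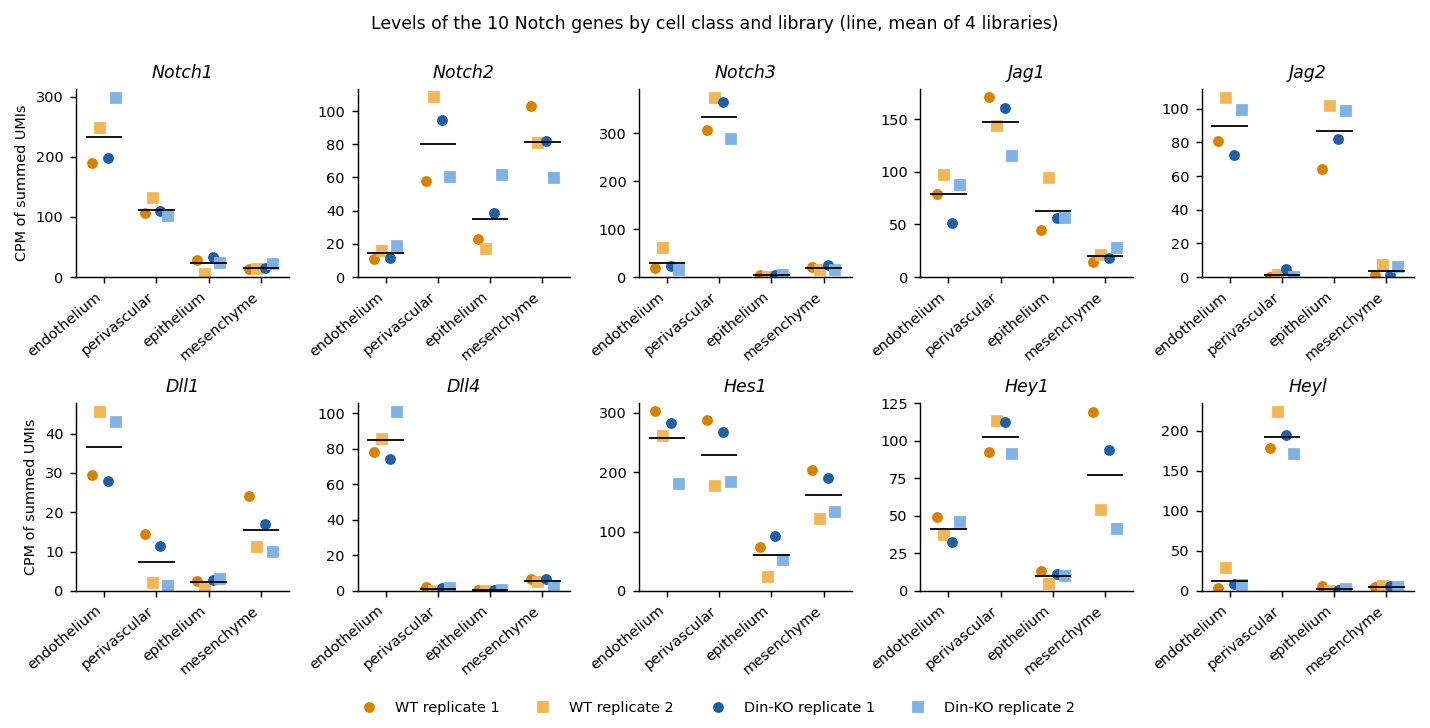
Level of each of the 10 Notch genes (vertical axis, CPM of summed UMIs, from 0) in endothelium, perivascular cells, epithelium and mesenchyme, with 1 point for each of the 4 libraries and a line at their mean. Notch1 and Dll4 points are highest in endothelium, those of Notch3 and Heyl in perivascular cells, and those of Jag2 are high in both endothelium and epithelium.

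Gene positions are those of the GENCODE annotation of GRCm38, in which all 10 genes are protein coding. Among the receptors, Notch1 (chr2:26457903-26516663, minus strand), the main receptor of endothelium and of developing epithelia, was highest in endothelial cells. There it was at 189.7 and 249 CPM in WT and 198 and 298 CPM in Din-KO libraries, and 73.8% to 89.2% of endothelial cells held at least 1 UMI of it. In hemoglobin barcodes 0.145% to 0.786% did, at medians of 5308 to 7965.5 UMIs against 8295 to 9772.5 in endothelium. With each cell thinned to 2000 UMIs the endothelial share was 25.8% to 49.0%. Perivascular cells came next, with 107 and 131 CPM in WT and 109.6 and 102 CPM in Din-KO libraries. Epithelium (28.2, 5.16, 33.8 and 23.3 CPM) and mesenchyme (13.4, 13.2, 15.0 and 21.0 CPM) were low, and their values overlapped with each other but not with those of either vascular class. Endothelium exceeded perivascular cells by 1.03 ± 0.29 on the log2 scale (standard error, adjusted p = 0.0128), epithelium by 3.02 ± 0.30 (adjusted p = 1.46e-06) and mesenchyme by 3.83 ± 0.30 (adjusted p = 1.72e-07). The step between the vascular classes was not called in 5 of 16 alternatives, among them the one without Din-KO replicate 2 (0.84, adjusted p = 0.102). A difference of epithelium over mesenchyme (0.80 ± 0.29, adjusted p = 0.0382) was lost in 11 of 16 alternatives, also without WT replicate 1, Din-KO replicate 1 or Din-KO replicate 2 (0.54 to 0.92, adjusted p = 0.0657 to 0.284).

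Notch2 (chr3:98013527-98150361, plus strand), a receptor of mesenchymal and mural cells, was lowest in endothelium. That class had 10.9 and 15.9 CPM in WT and 11.7 and 18.7 CPM in Din-KO libraries. Mesenchyme had 103 and 80.6 CPM in WT and 82.0 and 59.4 CPM in Din-KO libraries. In perivascular cells the gene was at 57.6 and 108 CPM in WT and 94.9 and 60.3 CPM in Din-KO libraries, a range that spans the mesenchymal one. These neighbors did not differ beyond their spread (log2 difference -0.12, 95% interval -0.79 to 0.55). Over 16 alternatives that difference ran from -1.22 to 0.16, and from -0.35 to 0.16 with a library left out. It was called in none of them, but the lower values show that the match depends on how the cells were chosen or tested. Endothelium was 5.87-fold below perivascular cells (adjusted p = 0.000196) and 6.39-fold below mesenchyme (adjusted p = 3.23e-05). The epithelial level lay between, at 23.2 and 16.6 CPM in WT and 38.6 and 61.3 CPM in Din-KO libraries. It was above endothelium (3.31-fold, adjusted p = 0.00143), a call lost in WT libraries only (adjusted p = 0.059) and in both selections without cells holding markers of another class (adjusted p = 0.0555 to 0.108). It was not called against perivascular cells (adjusted p = 0.0781), but was called below them in 4 of 16 alternatives, among them the one without Din-KO replicate 2 (perivascular cells higher by 1.38 on the log2 scale, adjusted p = 0.00267). Its difference from mesenchyme (-0.95 ± 0.33, adjusted p = 0.0297) was lost when WT replicate 1, WT replicate 2 or Din-KO replicate 1 was left out (-0.99 to -0.56, adjusted p = 0.103 to 0.215).

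Notch3 (chr17:32120820-32166852, minus strand), the receptor of vascular smooth muscle and pericytes, was concentrated in perivascular cells. It was at 307 and 374 CPM in WT and 365 and 288 CPM in Din-KO libraries, and 70.8% to 90.1% of perivascular cells held a UMI of it, against 0.145% to 1.17% of hemoglobin barcodes (medians of 8139.5 to 12331 and of 5308 to 7965.5 UMIs). Thinned to 2000 UMIs, 36.2% to 44.9% of perivascular cells did. Endothelium (19.6, 60.8, 24.0 and 13.7 CPM), mesenchyme (21.4, 15.2, 25.2 and 14.6 CPM) and epithelium (4.64, 0.861, 3.81 and 4.48 CPM) all lay far below, and no library of theirs reached the perivascular range. Perivascular cells exceeded endothelium 12.1-fold (adjusted p = 3.4e-06), mesenchyme 16.3-fold (adjusted p = 3.9e-06) and epithelium 70.5-fold (adjusted p = 1.06e-07). Endothelium and mesenchyme were not called apart (0.42, 95% interval -0.24 to 1.08).

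Among the ligands, Dll4 (chr2:119325784-119335962, plus strand) was found mainly in endothelium, where it marks arterial and sprouting cells. Endothelial cells had 78.2 and 85.7 CPM in WT and 74.2 and 101 CPM in Din-KO libraries, with a UMI in 40.8% to 49.1% of cells (12.7% to 15.2% when thinned). Hemoglobin barcodes held it in 0 to 0.238%. Mesenchyme had 6.56 and 5.21 CPM in WT and 6.56 and 2.84 CPM in Din-KO libraries. Perivascular cells held 1, 0, 1 and 1 UMIs in the 4 libraries, and so did the epithelium, so the folds against them rest on 3 UMIs in each class. The endothelial level was 15.0-fold that of mesenchyme (adjusted p = 2.29e-08), and the fitted log2 differences to perivascular cells and epithelium were 6.27 (95% interval 5.31 to 7.23) and 8.21 (7.34 to 9.07), values that depend on the prior count. Mesenchyme was called above epithelium (19.7-fold, adjusted p = 3.11e-05) and above perivascular cells (adjusted p = 0.0364). The latter call was lost in 11 of 16 alternatives (adjusted p = 0.083 to 0.615), among them those without WT replicate 1 (0.093), WT replicate 2 (0.182) or Din-KO replicate 1 (0.135).

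Jag2 (chr12:112907819-112929776, minus strand), a ligand of endothelium and of epithelia, was high in both of those classes. In endothelium it was at 80.7 and 106 CPM in WT and 72.2 and 99.0 CPM in Din-KO libraries. In the epithelium it was at 64.2 and 102 CPM in WT and 81.7 and 98.7 CPM in Din-KO libraries, with overlapping ranges and a log2 difference of -0.33 (95% interval -1.02 to 0.36). Mesenchyme had 0.971, 7.30, 0.959 and 6.03 CPM, and perivascular cells held 0, 1, 3 and 0 UMIs. Endothelium exceeded mesenchyme 28.8-fold (adjusted p = 4.44e-07), and epithelium exceeded it 36.3-fold (adjusted p = 3.85e-07).

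Jag1 (chr2:137081456-137116644, minus strand), the ligand that endothelial and mural cells use toward each other, was highest in perivascular cells. Their libraries had 171 and 143 CPM in WT and 160.3 and 115 CPM in Din-KO, all above the endothelial ones (78.8, 96.7, 51.7 and 87.2 CPM). Epithelium had 44.9, 94.1, 55.8 and 56.0 CPM, within the endothelial range at all but WT replicate 1, and mesenchyme had 14.7, 21.3, 17.7 and 28.0 CPM. Perivascular cells were 1.91-fold above endothelium (adjusted p = 0.0184) and 6.92-fold above mesenchyme (adjusted p = 1.97e-05). The call over endothelium was lost in 3 of 16 alternatives (adjusted p = 0.0525 to 0.24), among them those without WT replicate 1 (0.0525) or Din-KO replicate 1 (0.157). Endothelium and epithelium were not called apart (-0.13, 95% interval -0.66 to 0.40). The call of perivascular cells over epithelium (1.75-fold, adjusted p = 0.0311) was lost in 6 of 16 alternatives (adjusted p = 0.0811 to 0.308). Among them were those without replicate 1 of either genotype (0.171 to 0.199).

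Dll1 (chr17:15367354-15376872, minus strand), a ligand that the vascular endothelium also carries, was highest in that class. Endothelial levels were 29.6 and 45.6 CPM in WT and 28.0 and 43.0 CPM in Din-KO libraries. The mesenchymal levels of 24.2 and 11.1 CPM in WT and 17.0 and 9.90 CPM in Din-KO libraries did not reach them (endothelium 2.29-fold higher, adjusted p = 0.00985). This call was lost in 2 of 16 alternatives (adjusted p = 0.0505 to 0.196), among them the one without Din-KO replicate 2 (0.0505). Perivascular cells held 7, 2, 7 and 1 UMIs, and epithelium was at 0.574 to 2.91 CPM. The call of endothelium over perivascular cells (5.82-fold, adjusted p = 0.00217) was lost in 1 of 16 alternatives (adjusted p = 0.0912). Mesenchyme exceeded epithelium 5.36-fold (adjusted p = 0.00059), and its difference from perivascular cells was not called (adjusted p = 0.128).

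Of the targets, Hes1 (chr16:30064384-30067796, plus strand), a repressor that answers to Notch and to other signals, was expressed in all 4 classes, with a largest log2 difference of 1.78 between any of them. Endothelium had 303 and 262 CPM in WT and 284 and 179.9 CPM in Din-KO libraries, and perivascular cells had 288, 176, 268 and 184 CPM. These classes overlapped and were not called apart (0.19, 95% interval -0.14 to 0.53). Mesenchyme had 203, 121, 189.8 and 133 CPM and epithelium 74.2, 23.2, 91.8 and 52.2 CPM. Endothelium exceeded mesenchyme 1.53-fold (adjusted p = 0.00675), a call lost without the library block (adjusted p = 0.11) and in WT libraries only (adjusted p = 0.0635). Each of the other classes exceeded epithelium by 2.25-fold to 3.43-fold (adjusted p = 1.26e-06 to 7.7e-05). In every class, replicate 1 of each genotype was above replicate 2.

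Hey1 (chr3:8663359-8667256, minus strand), a target that acts in vessel development and in skeletal cells, was shared by perivascular cells and mesenchyme. Perivascular cells had 92.6 and 114 CPM in WT and 113 and 91.2 CPM in Din-KO libraries, and mesenchyme 119.6 and 53.7 CPM in WT and 94.2 and 41.1 CPM in Din-KO libraries. Mesenchyme divided by replicate number, with both replicate 1 libraries high. The classes were not called apart (0.43, 95% interval -0.07 to 0.93). Endothelium (49.2, 37.3, 32.2 and 46.1 CPM) was 2.58-fold below perivascular cells (adjusted p = 0.00143) and 1.92-fold below mesenchyme (adjusted p = 0.00647, and 0.0951 without Din-KO replicate 1). The first of these calls was lost in 4 of 16 alternatives (adjusted p = 0.0632 to 0.215). Mesenchyme had the highest mean with marker-based classes, at a resolution of 0.5 and without regression of the cell cycle. Epithelium had the least, at 4.30 to 13.6 CPM, 6.28-fold below mesenchyme (adjusted p = 4.22e-06).

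Heyl (chr4:123233556-123249875, plus strand), the Hey family gene of mural cells, followed Notch3. It was at 179 and 224 CPM in WT and 195 and 172 CPM in Din-KO perivascular cells, and 59.7% to 83.1% of those cells held a UMI (17.0% to 44.9% when thinned), against 0 to 0.583% of hemoglobin barcodes. Endothelium had 4.05 to 29.0 CPM, with the most in WT replicate 2, mesenchyme 4.22 to 6.45 CPM and epithelium 0 to 5.71 CPM. No other class reached the perivascular range, which exceeded endothelium 18.8-fold (adjusted p = 6.87e-06), mesenchyme 34.1-fold (adjusted p = 3.5e-06) and epithelium 66.2-fold (adjusted p = 7.92e-07). A call of endothelium over epithelium (1.82 ± 0.61, adjusted p = 0.0216) was lost when WT replicate 2, Din-KO replicate 1 or Din-KO replicate 2 was left out (adjusted p = 0.0668 to 0.118).

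The Notch3 and Heyl UMIs of the endothelial class came from few cells. A UMI of Notch3 was held by 15, 16, 19 and 7 endothelial cells of the 4 libraries, and 47.4% to 68.8% of these also held Heyl, against 0.446% to 4.65% of the other endothelial cells. The cells with Notch3 had median UMI counts of 14780 to 36480, against 7920 to 9177 in the rest. The summed perivascular markers of the endothelial class (5 of 14 detected) were at 1034 and 2396 CPM in WT and 1028 and 928 CPM in Din-KO libraries, highest in WT replicate 2, which also had the highest Notch3 and Heyl. When cells with UMIs of 3 or more vascular or epithelial markers of another class were left out, a selection chosen after seeing the data, endothelial Notch3 was at 0, 2.68, 1.33 and 1.41 CPM and Heyl at 0, 2.68, 0.884 and 0 CPM. It left 167 and 49 endothelial cells in WT and 221 and 66 in Din-KO libraries. Because cells are removed by perivascular markers, a fall of genes that go with these markers is partly built in. With this selection endothelium was below mesenchyme in Notch3 (-4.31, adjusted p = 1.4e-05) and in Heyl (-2.94, adjusted p = 0.0102), from 0.42 and 0.86 with all cells, which were not called, and it was no longer above epithelium (-1.45 and -1.19, adjusted p = 0.148 and 0.429). The endothelial genes were kept by it, with Notch1 at 186 to 276 CPM, Dll4 at 60.6 to 118 CPM and Jag2 at 74.3 to 160.5 CPM.

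How the perivascular class was drawn also moved its levels. Its leading genes were Rgs5, Acta2, Lpl and Myh11, and its mesenchymal markers (12 of 12 detected) summed to 8713 and 22274 CPM in WT and 10061 and 21413 CPM in Din-KO libraries, high in both replicate 2 libraries. At a clustering resolution of 0.5, 76 cells (26, 17, 24 and 9) were left in the class, and the other alternatives that redrew it left about as few, 72 without regression of the cell cycle and 74 with classes from markers cell by cell. Without that regression, a cluster of 157 cells led by Lepr and Lpl, which were leading genes of the larger perivascular cluster, was named follicle. In the 76 cells, Notch3 was at 659 and 967 CPM in WT and 804 and 838 CPM in Din-KO libraries, Heyl at 298 to 365 CPM and Jag1 at 289 to 391 CPM, each above every library of the larger class. Hey1 was at 40.9, 110.3, 45.7 and 88.5 CPM, and mesenchyme was then the class with the highest mean Hey1. With these cells the Hes1 difference between endothelium and perivascular cells was called (0.63, adjusted p = 0.0341), and those of Notch1 and Hey1 were not (0.99 and -0.73, adjusted p = 0.0545 and 0.215).

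**Figure D2:**
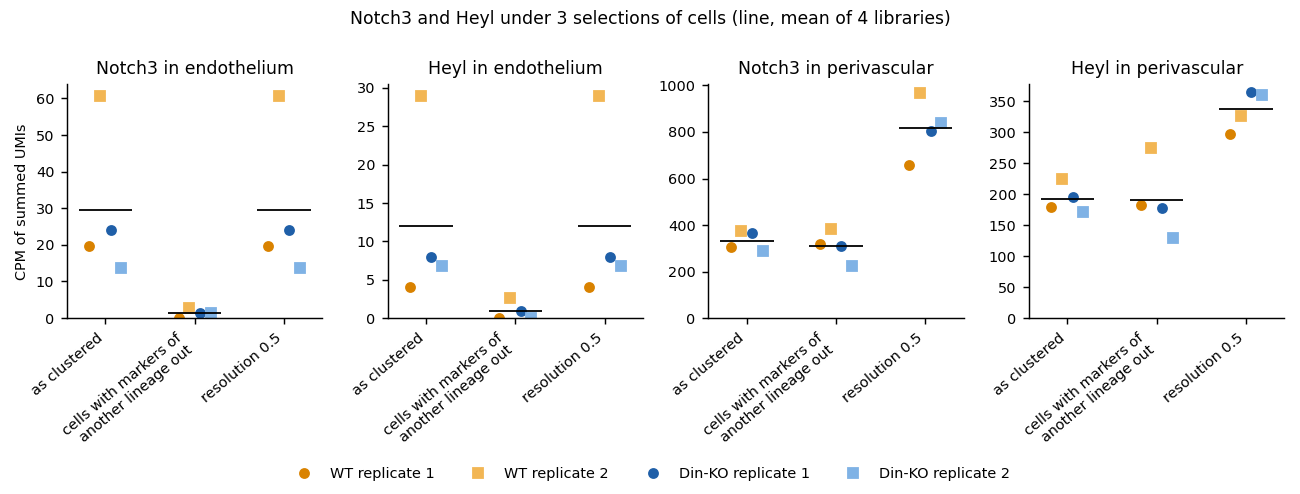
Notch3 and Heyl in the endothelial and perivascular classes (vertical axes, CPM of summed UMIs, from 0) with cells as clustered, without cells that hold markers of another lineage, and at a clustering resolution of 0.5, with 1 point for each library and a line at the mean of 4. Endothelial Notch3 lies at 13.7 to 60.8 CPM as clustered and at 0 to 2.68 CPM without the marker-bearing cells, and perivascular Notch3 lies at 659 to 967 CPM at the lower resolution.

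Within endothelium, clustering divided the cells into a cluster led by Emcn and Plvap (596 cells) and a cluster led by Gja4, Cldn5 and Sox17 (153 cells, 19.4% to 22.5% of endothelial cells in each library). Of a list of arterial genes, 8 of 8 were higher in the Gja4 cluster in all 4 libraries, and 5 of 8 venous or capillary genes (Nr2f2, Ephb4, Vwf, Ackr1 and Selp) were lower in all 4. The lists were chosen after these clusters had been formed and the clusters come from the same cells, so no test was made. Of the Notch genes, 8 of 10 were higher in the Gja4 cluster in every library, and Notch2 and Dll1 were lower in every library. Of 11118 genes tested in endothelium, 15.0% were higher and 16.8% were lower in the Gja4 cluster in every library. Dll4 was at 180.2, 167, 149 and 223 CPM in the Gja4 cluster and at 45.6, 56.3, 54.0 and 72.8 CPM in the Emcn cluster. The target Hey1 was at 133, 86.3, 105 and 149.8 CPM in the Gja4 cluster, against 22.6, 19.7, 12.4 and 22.2 CPM in the Emcn cluster. Jag1 was at 230.4, 180.4, 135 and 146 CPM against 30.4, 66.7, 29.2 and 73.5 CPM. For these 3 genes, each library of the Gja4 cluster was above all libraries of the Emcn cluster. Jag1 and Hey1 had their highest class mean in perivascular cells, and perivascular markers were also higher in the Gja4 cluster. The part of mixed cells in these levels was not tested.

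Notch1 (292 to 446 against 157 to 264 CPM) and Jag2 (144 to 193 against 47.7 to 82.7 CPM) were also apart in all libraries. Hes1 differed less, with 249.7 to 363 against 164 to 299.6 CPM. Dll1 was at 20.6, 39.2, 26.9 and 20.0 CPM in the Gja4 cluster and at 32.5, 47.9, 28.3 and 48.2 CPM in the Emcn cluster, the opposite order to Dll4. Notch3 and Heyl also lay in the Gja4 cluster (69.5, 196, 85.4 and 69.9 CPM of Notch3 against 0.766 to 12.2 CPM), where the perivascular markers summed to 2881, 7164, 3047 and 3082 CPM against 433 to 684 CPM. Notch1 and Dll4 were found together in single endothelial cells: of those with a UMI of Notch1, 45.2% to 53.5% held Dll4, and of those without, 9.09% to 28.6% did. The cells with Notch1 had median UMI counts of 10380 to 11660 and those without had 3845 to 6174, and the part of depth in this was not tested.

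**Figure D3:**
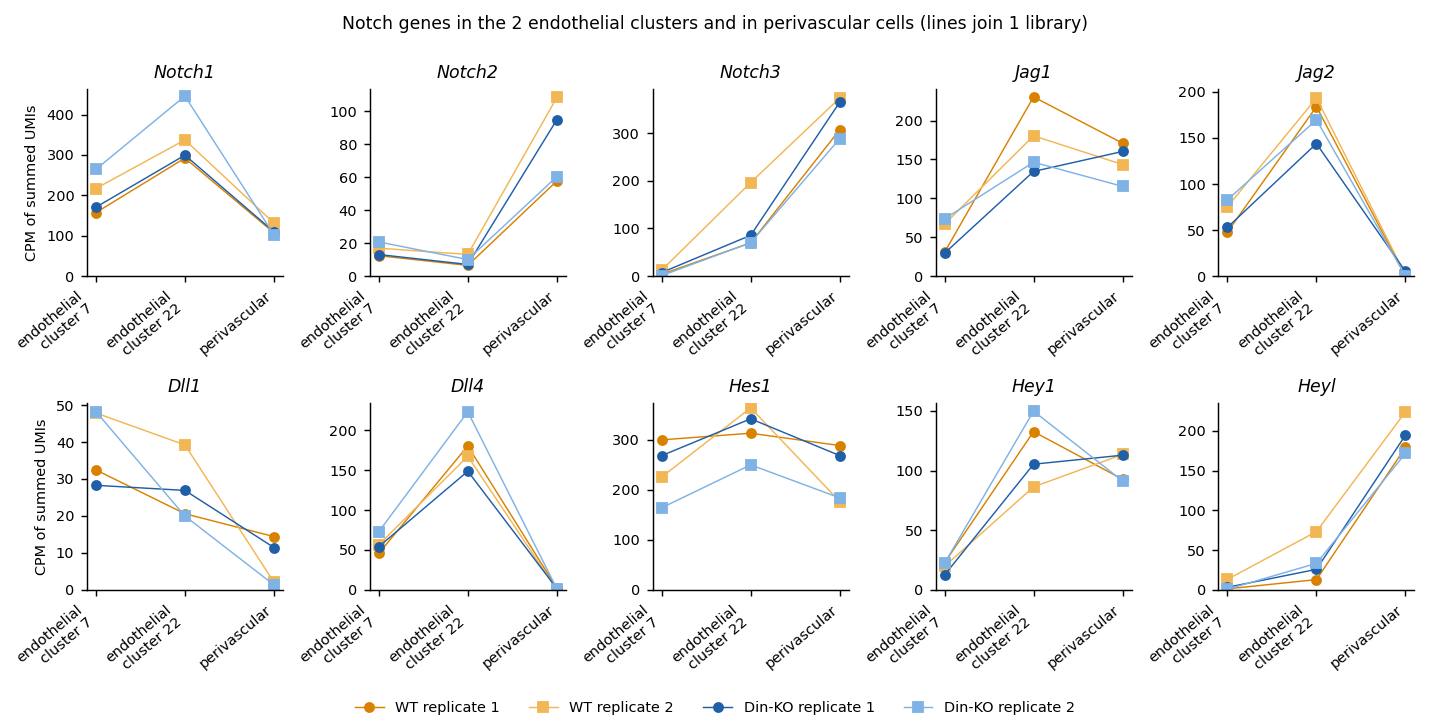
Level of the 10 Notch genes (vertical axes, CPM of summed UMIs, from 0) in the Emcn-led endothelial cluster (7), the Gja4-led endothelial cluster (22) and perivascular cells, with a line joining the values of 1 library. Dll4, Jag2 and Notch1 peak in the Gja4-led cluster in all 4 libraries, Dll4 at 149 to 223 CPM, while Notch3 and Heyl are highest in the perivascular class.

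The epithelium held a cluster led by Shh (328 cells) and a cluster led by the enamel matrix genes Amelx and Enam (250 cells). Their shares differed by library, and the first made up 83.4% and 26.4% of WT and 67.8% and 40.7% of Din-KO epithelial cells. Notch1 was at 37.0, 33.2, 60.6 and 45.9 CPM in the Shh cluster and at 2.76, 0.989, 2.58 and 7.90 CPM in the Amelx cluster. Notch2 was at 31.3, 117, 69.9 and 115 CPM in the former and at 0, 1.65, 2.07 and 25.2 CPM in the latter, so both receptors were higher in the Shh cluster in every library. Jag1 had the opposite order, with 28.8, 55.3, 25.7 and 26.6 CPM in the Shh cluster and 91.1, 99.9, 90.9 and 75.9 CPM in the Amelx cluster. Jag2 was in both, at 64.9 to 139 and 62.1 to 101 CPM. Hes1 and Hey1 were higher in the Shh cluster in every library (Hes1 at 53.1 to 149 against 12.4 to 48.1 CPM, and Hey1 at 15.9 to 17.7 against 2.31 to 5.17 CPM).

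Mesenchyme was made of pulp clusters (5055 cells), follicle clusters (1272 cells) and odontoblast clusters (227 cells). A pulp cluster of 588 cells had Smpd3 and Sgms2, both of the odontoblast list, among its leading genes. Without regression of the cell cycle, a cluster of 379 cells led by Dkk1 and Smpd3 was named odontoblast. The border between pulp and odontoblasts therefore depends on the clustering, and the pulp values hold cells with odontoblast markers. Pulp cells were 85.7% and 86.7% of the mesenchyme in the replicate 1 libraries of WT and Din-KO, and 40.6% and 43.4% in the replicate 2 libraries. Hey1 was a gene of pulp, with 149 and 125 CPM in WT and 117 and 75.8 CPM in Din-KO libraries, against 13.7 to 26.9 CPM in follicle and 8.16 to 18.1 CPM in odontoblasts. Notch2 was graded, from 115, 114, 90.4 and 78.3 CPM in pulp through 66.9, 78.3, 67.3 and 60.3 CPM in follicle to 15.4, 17.6, 8.28 and 12.2 CPM in odontoblasts. Within pulp, the cluster led by Cldn10 and Ifitm1 (1366 cells) had Notch2 at 167, 274, 165 and 223 CPM, and Hey1 there was at 223, 342, 271 and 392 CPM. Hey1 had a higher mean still in a small cluster led by Slc20a2 and Pdlim3 (365 and 452 CPM in the replicate 1 libraries of WT and Din-KO, with under 10 cells in the others), where Notch3 was at 96.5 and 139 CPM. Clusters led by Smoc2 or by Dlk1 had little Hey1 (means of 14.8 and 18.7 CPM). Across the 13 clusters, the mean levels of Notch2 and Hey1 had a Spearman rank correlation of 0.835, and those of Notch3 and Heyl one of 0.830. These were the highest among all pairs of the 10 genes. Pairs of receptors were nearly as high (0.808 for Notch1 and Notch3, 0.780 for Notch2 and Notch3). The target Hes1 had only 0.159, 0.374 and 0.154 with Notch1, Notch2 and Notch3. These clusters share libraries, so the values are a description.

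Among the ligands of mesenchyme, Dll1 lay in pulp (29.3, 25.2, 19.6 and 17.6 CPM) and odontoblasts (30.8, 14.3, 35.4 and 23.3 CPM) and was at 0.631 to 1.87 CPM in follicle. In the Cldn10 cluster it was at 51.8 and 88.8 CPM in WT and 52.8 and 98.7 CPM in Din-KO libraries, above the endothelial level of every library. The odontoblast clusters held different ligands. The cluster led by Dmp1 and Dkk1 (94 cells) had Dll1 at 37.7 to 49.7 CPM and Jag2 at 1.49 to 7.84 CPM. In the cluster led by Bglap and Dspp (133 cells), Dll1 was at 5.82 to 6.09 CPM, Jag2 at 43.7, 32.0 and 45.6 CPM and Dll4 at 26.0, 46.5 and 14.6 CPM in WT replicate 2 and the Din-KO libraries, while WT replicate 1 had under 10 cells. Jag1 was higher in follicle than in pulp or odontoblasts in all 4 libraries (23.3, 27.0, 26.1 and 36.3 CPM, against 12.7, 19.5, 15.9 and 23.4 CPM in pulp and 6.95 to 15.8 CPM in odontoblasts). A further cluster of 448 cells, led by Ifitm1 and Stbd1, held Hey1 at 258, 372, 272 and 271 CPM and Notch2 at 119.8 to 172 CPM. Its highest marker score was that of mesenchyme. It was left unnamed because its leading genes held Kit, of the mast cell or basophil list, and no mesenchymal marker. The mesenchymal levels and tests therefore leave it out. An alternative that added it to mesenchyme was made after the data had been seen. There, edgeR called 0 of 10 Notch genes between genotypes in mesenchyme, and 0 of 15200 genes in all.

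**Figure D4:**
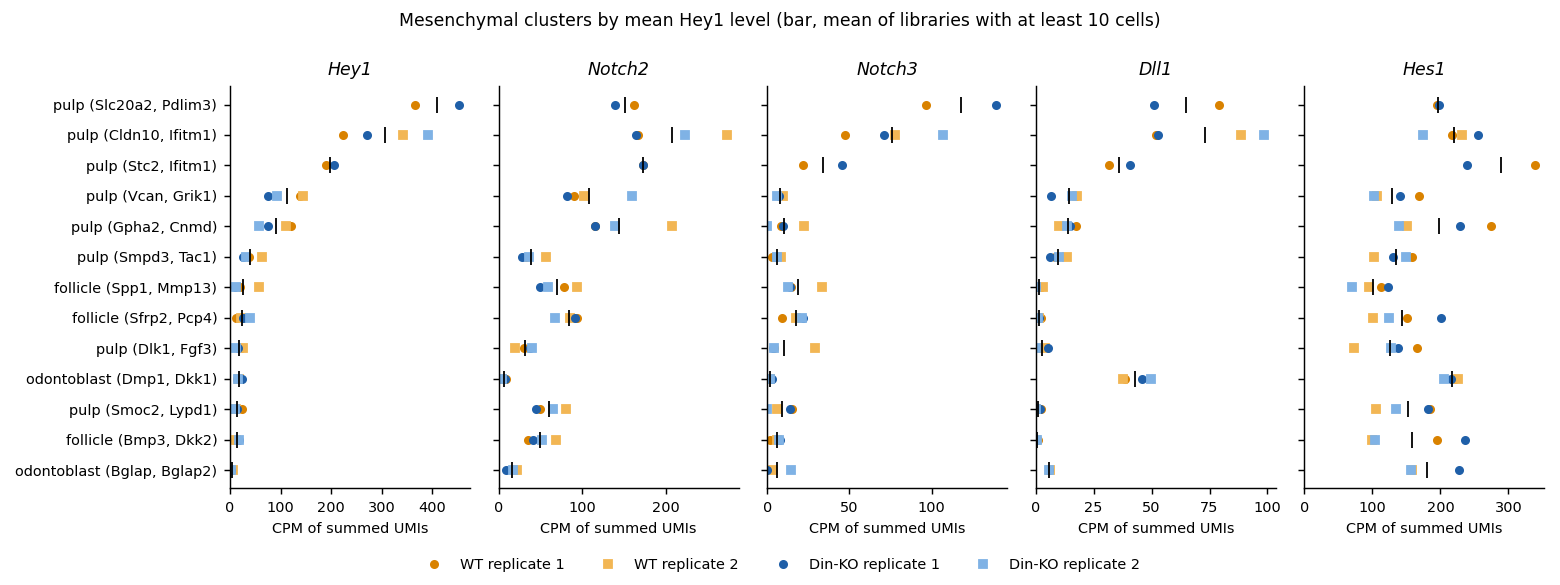
Hey1, Notch2, Notch3, Dll1 and Hes1 (horizontal axes, CPM of summed UMIs, from 0) in the 13 mesenchymal clusters, ordered by mean Hey1 and named by type and leading genes, with points for libraries with at least 10 cells and a bar at their mean. The 3 clusters with the most Hey1 are pulp clusters and are also high in Notch2, while Dll1 has a separate high point in the Dmp1-led odontoblast cluster (37.7 to 49.7 CPM).

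Outside these classes, Notch1 was found in glia (118, 203, 83.3 and 144 CPM in 94 cells) and Notch2 in macrophages (52.1, 107, 45.6 and 62.7 CPM). Neutrophils, which had been chosen as cells that should lack these genes, held Notch1 at 35.9 and 105 CPM in WT and 72.2 and 106 CPM in Din-KO libraries and Notch2 at 50.6 to 110.0 CPM. Both were far above the hemoglobin barcodes, so neutrophils could not stand for free RNA. Dll4 in neutrophils was 1 UMI in WT replicate 1 and 0 in the other libraries.

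Of a list of 48 other Notch pathway genes, 42 could be tested between classes. Endothelium had more of them called higher than lower, with 16 higher and 7 lower against perivascular cells, 15 and 9 against epithelium, and 18 and 8 against mesenchyme. Of all tested genes, 18.2% were called higher and 17.8% lower in endothelium in the first of these pairs, 26.8% and 27.9% in the second, and 24.7% and 28.5% in the third. Their median log2 differences were 0.35, 0.18 and 0.33, beside 0.01, -0.05 and -0.08 over all tested genes. In the other pairs the counts were 8 higher and 9 lower (perivascular cells against epithelium), 5 and 3 (perivascular cells against mesenchyme) and 11 and 6 (epithelium against mesenchyme). The shares of all tested genes called higher and lower in these pairs were 22.4% and 21.7%, 8.20% and 6.89%, and 20.1% and 24.3%. Endothelium was led by Mfng, a fringe glycosyltransferase that modifies Notch receptors (115.9 ± 27.6 CPM, SD, n = 4 libraries, and under 1 CPM on average in each other class), by the endothelial receptor Notch4 (115.5 ± 25.7 CPM, with means of 1.72 to 2.44 CPM elsewhere) and by the feedback target Nrarp (129.5 ± 18.6 CPM). Perivascular cells were led by the target Hey2 (36.6 ± 14.2 CPM, with means of 2.10 to 4.60 CPM elsewhere) and by Dtx4, a Deltex ubiquitin ligase (22.9 ± 3.55 CPM). In mesenchyme the 1 gene called higher than in all 3 other classes was Dlk1, a non-canonical ligand (144 ± 95.1 CPM). Epithelium had Fbxw7, the ubiquitin ligase that turns over the intracellular domain (49.9 ± 7.15 CPM, with means of 22.4 to 42.5 CPM elsewhere). Kat2b was at 33.9 ± 21.4 CPM there, with means of 19.4 to 25.6 CPM elsewhere. Lfng was also named for epithelium (15.9 ± 7.93 CPM), although in endothelium it was at 54.1 ± 2.23 CPM.

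The genes whose pattern over the 16 sums was most like each Notch gene were found by Pearson correlation of log2(CPM + 1) among 9431 genes. The class differences shape these values, and sums of 1 library share its depth. Notch1 was closest to Cd93 (r = 0.977), an endothelial surface protein, Dll4 to Eogt (0.974), a glycosyltransferase that modifies Notch receptors, and Notch3 to Atp1b2 (0.977). Heyl was closest to Foxs1 (0.975), with Notch3 next (0.972), the 1 case in which another of the 10 genes was among the 3 nearest. For the rest, the nearest genes were Sgpl1 (Notch2, 0.959), Mgp (Jag1, 0.949), Susd4 (Jag2, 0.962), As3mt (Dll1, 0.944), Sri (Hes1, 0.972) and Thra (Hey1, 0.983).

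Din-KO was compared with WT within each class to ask whether loss of Din moved these genes. No Notch gene was called in any class in edgeR (quasi-likelihood test, Benjamini-Hochberg adjustment). In endothelium 0 of 10 genes were called (background 0.0540% of all tested genes, 312 genes at an unadjusted p under 0.05, none of them a Notch gene). In perivascular cells it was 0 of 7 tested (background 0%, 154 genes), in epithelium 0 of 8 (background 0%, 144 genes) and in mesenchyme 0 of 10 (background 0%, 166 genes). DESeq2 called 51, 4, 5 and 15 genes in these classes and also 0 Notch genes. In cells with Xist and without Y-linked transcripts, edgeR called 0 genes in every class, with 381, 187, 156 and 139 genes at an unadjusted p under 0.05. Jag2, Dll1 and Dll4 in perivascular cells and Dll4 and Heyl in epithelium were below the filter on low counts.

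The intervals are 1.96 standard errors on either side, a factor for large samples. With 2 libraries in a group they are narrower than the quasi-likelihood test would give, so larger differences also remain possible. In perivascular cells Notch3 differed by -0.10 on the log2 scale (95% interval -0.67 to 0.47), Jag1 by -0.23 (-0.85 to 0.39) and Heyl by -0.18 (-0.74 to 0.38). In endothelium, Notch1 differed by 0.20 (-0.33 to 0.73) and Dll4 by 0.11 (-0.35 to 0.58). In mesenchyme, Notch2 differed by -0.41 (-0.93 to 0.11), and Hey1, which divided by replicate number, by -0.39 (-1.53 to 0.75). The Cldn10 cluster, high in both genes, made up 32.4% and 10.3% of WT and 17.0% and 5.02% of Din-KO mesenchyme. The Smoc2 cluster, low in Hey1, made up 8.59% and 3.78% against 20.6% and 9.52%. Within the Cldn10 cluster, Hey1 was higher and Notch2 was lower in Din-KO at each replicate number. The part of these cluster shares in the mesenchymal differences was not tested. The Notch gene with the smallest p was Notch2 in epithelium, at 23.2 and 16.6 CPM in WT and 38.6 and 61.3 CPM in Din-KO libraries (1.21, interval 0.45 to 1.96, unadjusted p = 0.0252 and adjusted p = 1 in edgeR). Over the alternatives this difference ran from -0.53 to 2.05. It was 0.77 to 1.54 with a library left out and 1.27 in cells with Xist only, and its sign turned (-0.53) when cells holding markers of another class were left out, as did that of its difference from mesenchyme (-0.22). The groups did not overlap, and the Notch2 level of the Shh cluster did, with 31.3 and 117 CPM in WT and 69.9 and 115 CPM in Din-KO libraries. Epithelial Notch2 was the 1 Notch gene of the epithelium whose genotype difference set itself apart from that of mesenchyme at an unadjusted p under 0.05 (1.63 ± 0.53, unadjusted p = 0.0115, adjusted p = 1 in edgeR). Of the genotype differences between mesenchyme and another class, 0 of 10 Notch genes were called by edgeR in each of 3 tests (background 0% in each), with 144 genes at an unadjusted p under 0.05 for endothelium, 288 for perivascular cells and 300 for epithelium.

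Leaving out WT replicate 1 moved endothelial Notch3 to -1.56 and Heyl to -1.87 on the log2 scale. Both gained a call in that fit, which is not read as a result, because 1 WT library gives no spread within WT. That comparison rests on WT replicate 2 alone for WT, with Notch3 at 60.8 CPM against 24.0 and 13.7 CPM in Din-KO, and this library also had the highest perivascular marker sum in endothelium. Without the cells that hold markers of another lineage, endothelial Notch3 was at 0 and 2.68 CPM in WT and 1.33 and 1.41 CPM in Din-KO libraries.

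**Figure D5:**
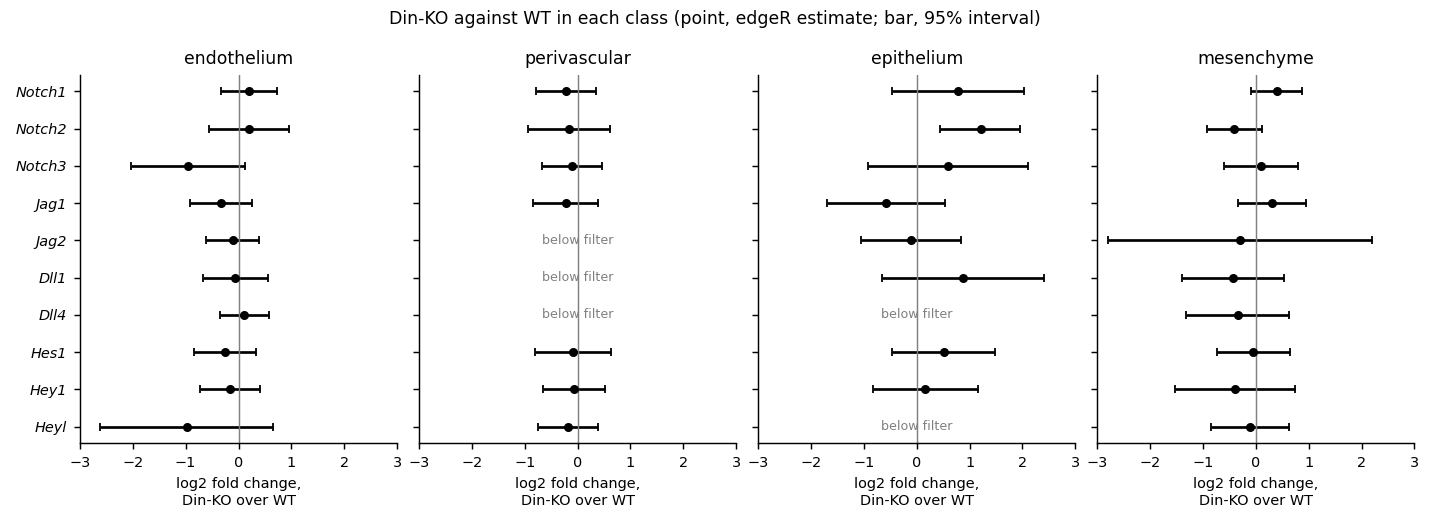
Log2 fold change of Din-KO over WT (horizontal axes) for the 10 Notch genes in each of the 4 classes, with points for the edgeR estimate and bars for the 95% interval, and genes below the filter on low counts named as such. All intervals (1.96 standard errors) but that of Notch2 in epithelium (0.45 to 1.96) include 0, and no difference passed the adjusted threshold.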

How the data were processed

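The authors made the libraries with 10x Genomics 3' chemistry, aligned reads to mm10/GRCm38 with Cell Ranger and deposited raw counts of UMIs by gene and barcode, not normalized. Versions of Cell Ranger, bcl2fastq and Seurat are not given in the sources used here. Following the study's methods, cells under 1000 genes, over 10% mitochondrial UMIs or over 3% hemoglobin UMIs were removed. Seurat 5.3.0 (R 4.3.3) integrated the libraries with 2000 variable genes, 30 principal components, a resolution of 1 and regression of the cell cycle, leaving out the Notch genes. Of 32 clusters, 30 were named, each from at least 3 detected markers. Scrublet (scanpy 1.11.5) called 0.946% of cells doublets. They were kept, and removal of the highest 5% of scores was an alternative.

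UMIs were summed by class and library and tested in edgeR 4.0.16 (TMM, filterByExpr, quasi-likelihood test, Benjamini-Hochberg, 0.05), which was checked on simulated counts. Genotype was fitted within each class with no covariate, and class pairs in 1 fit with the library as a block. Intervals are 1.96 standard errors, narrower than the quasi-likelihood test would give with so few libraries, and cover no choice of cells. The 10 genes were named whatever their values. Other pathway genes were named, up to 3 in a class, for the largest difference above the mean of the other classes. Only genes past the threshold in all 3 pairs of that class entered. Similar genes were the 3 with the highest correlation. The members, lists and tests were chosen with earlier results of these data known. Alternatives were other size factors, DESeq2 1.42.0, no filter, blocks, each library left out, WT libraries only, only cells with at least 3 Xist UMIs and 0 UMIs of Y-linked genes, other cell selections, marker-based classes and other clusterings, and the selections that used vascular or epithelial markers or hemoglobin barcodes and the split into clusters were added after the data had been seen. Totals were 32198098 to 54348039 UMIs in a library. Floors from counts cover counting error only.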

Additional observations from a re-analysis of the deposited data

How the results depend on the processing

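Of 960 fold changes between classes under the alternatives, 876 kept their direction and side of the threshold or were not called either time, 60 lost and 16 gained the call, and 8 turned. The 8 were Notch3 and Heyl in endothelium. Without cells holding markers of another class, Notch3 went to -2.42 against epithelium and -4.71 against mesenchyme and Heyl to -2.17 and -3.15, and in the selection added later, to -1.45 and -4.31 and to -1.19 and -2.94. The genotype fold changes within classes and the differences of these from mesenchyme came to 969 under the alternatives. Of these, 143 had the opposite sign with no call either time. The side of the threshold changed only for Notch3 and Heyl in endothelium without WT replicate 1. That fit has 1 WT library, so the change is not read as a result. With WT libraries only, 5 Notch genes were called between endothelium and perivascular cells and 5 between endothelium and mesenchyme. Calls over all genes fell as well, to 1341 and 2968 from 4707 and 6943 with all libraries. With the added selection 5 Notch genes were called between endothelium and epithelium. Over all genes that pair had 3576 calls (WT libraries only) to 7843 across the alternatives. That range is not the count of the added selection, so the 5 genes cannot be set beside a share of all genes.

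Over all genes, endothelial genotype calls (6, all higher in Din-KO) were 204 without a filter and 51 in DESeq2. They were 2 in 1 fit over the 4 classes, 28 without the highest doublet scores and 21 to 269 with a library left out. Without cells holding markers of another class there were 27, in the added selection 13, and in cells with Xist only 0. The Xist selection was kept because only the Din-KO libraries held cells with Y-linked transcripts, so sex moves with genotype. It also took Din-KO endothelium from 294 and 114 cells to 129 and 63, and WT from 239 and 102 to 224 and 94. Genes at an unadjusted p under 0.05 in edgeR were 312 with all cells and 381 in that selection. Whether sex or the smaller number of cells lies behind the lost calls was not tested. Perivascular calls (0) were 58 without a filter, 4 in DESeq2, 1 with marker-based classes, 1 at a resolution of 0.5 and 7 to 57 with a library left out. Epithelial calls were 5 in DESeq2. Mesenchymal calls (0) were 10 without a filter, 15 in DESeq2, 4 in 1 fit over the classes and 0 to 5 with a library left out. Calls on differences between classes were 1 without a filter and 3 without cells holding other markers (endothelium and mesenchyme), and 0 to 2 with a library left out (epithelium and mesenchyme).

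Replicate numbers, taken from the sample titles, are shared by the genotypes, but the names of the deposited matrices number some libraries differently, which leaves the pairing and the block in doubt. Same-numbered libraries deviated together (correlations of 0.540 in endothelium, 0.403 in perivascular cells, 0.551 in epithelium and 0.879 in mesenchyme). They were also alike in the cells kept (3903 and 4575 in replicate 1 of WT and Din-KO, 1560 and 1272 in replicate 2). The pulp share of mesenchyme divided in the same way (85.7% and 86.7% against 40.6% and 43.4%). With 2 pairs, what lies behind this was not tested. With a replicate block, 166 genes were called in endothelium, 61 in perivascular cells and 264 in mesenchyme, and 0 Notch genes in any class. In mesenchyme 4 of 10 Notch genes (Jag1, Hey1, Notch2 and Dll1) then had an unadjusted p under 0.05, as did 12.2% of all genes.

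In WT libraries only, class pairs called 1341 genes (endothelium and perivascular cells), 3576 (endothelium and epithelium), 2968 (endothelium and mesenchyme), 2493 (perivascular cells and epithelium), 287 (perivascular cells and mesenchyme) and 2395 (epithelium and mesenchyme). Endothelium and perivascular cells gave 2709 calls with marker-based classes, 2895 at a resolution of 0.5 and 2858 without regression of the cell cycle, and perivascular cells and epithelium gave 3812 with marker-based classes. Perivascular cells and mesenchyme gave 1224 without the library block and 1221 in the added selection, and 895 to 1455 with a library left out. The cause of these changes was not tested, except that fewer libraries or cells enter some of them. Of 280 class levels under other selections or clusterings, 47 moved by more than 1 SD over libraries.

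Small classes limit the values. The perivascular class held 48 to 71 cells in a library, so 3 UMIs there stand for up to 6.18 CPM, and Jag2, Dll1 and Dll4 in it were at or near that floor. Free RNA was not removed, doublets were not separated from cells of mixed markers, and mice in a library are not known here. The genotype comparisons have 2 libraries in a group, and intervals over them were wide for low genes.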
